A study of Chlorocebus sabaeus with 6 samples.

Results

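The genes described are 10 genes of the unfolded protein response and the integrated stress response: HSPA5, HSP90B1, CALR, DNAJB9, XBP1, ATF4, DDIT3, ASNS, TRIB3 and PPP1R15A. They were chosen by their human Ensembl protein accessions, which name part of the rows of a table of 51520 features, by a rule that uses no measured value. The list itself was drawn up with earlier results of these data known. Of the 10 accessions, 9 matched a row, 1 row each, and DDIT3 was not analysed here. The pairing of accession with symbol came with the selection rule. In the RefSeq gene table of the same species (assembly mChlSab1.0.hap1), each of the 9 symbols lies on the chromosome that the deposited row gives.

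The libraries were made from poly-A RNA of COS-1, a cell line from the kidney of the African green monkey (Chlorocebus sabaeus) and transformed with sequences of simian virus 40. The control group held 3 libraries of cells labelled as having had no treatment, and the other group held 3 libraries of lentivirus-treated cells. All cells of both groups were kept without serum for 14 h and then exposed to EGF (epidermal growth factor, 2 ng/ml) over 90 min, so no library stands for unstimulated cells. The title of the series is about SHOC2, which scaffolds RAS signalling to ERK1/2, and the cargo of the lentivirus is not stated. The control cells are labelled as untreated, so an effect of infection and an effect of what the virus carried cannot be told apart. Whether the replicates were separate cultures is not given, so the p-values reflect the scatter of these 6 libraries alone, and that scatter may be technical. The cell line was not checked against marker genes, because the table pairs no accession with a symbol.

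The endoplasmic reticulum folds secreted and membrane proteins, and a load of unfolded protein there activates sensor proteins in its membrane. The sensor IRE1 splices the XBP1 transcript, the sensor ATF6 is cut to release a transcription factor, and the sensor PERK phosphorylates the translation initiation factor eIF2. Phosphorylated eIF2 slows general translation and favours translation of ATF4, and other kinases reach the same step when amino acids are short or when a virus makes double-stranded RNA, which is why this branch is called the integrated stress response. ATF4 in turn activates genes such as DDIT3, ASNS and TRIB3, while PPP1R15A brings a phosphatase to eIF2 and closes the loop. Much of this regulation acts on splicing, translation and phosphorylation, none of which the present values measure.

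Values are FPKM (fragment density per kilobase, corrected for library size), a level per length. A row's level also depends on how fragments were shared with rows that overlap it, so levels of different genes are compared here only as rows of the table. The 28434 rows whose mean reached 1 FPKM were tested together with limma on log2(FPKM + 1), with Benjamini-Hochberg adjustment over all of them, and rows with an adjusted p under 0.05 were called. Fold changes on this scale understate the change of low genes. The table sums to between 2094230 and 2206925 FPKM per library, and the number of reads behind each value is unknown. Pearson's r of log2(FPKM + 1) across tested rows (a correlation over rows, not over replicates) ranged from 0.941 to 0.953 for libraries of 1 group and from 0.935 to 0.949 for libraries of different groups. In RNA from whole cultures, fewer cells of a type and less RNA per cell cannot be told apart.

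Of the 8 genes tested as rows, XBP1, TRIB3 and HSPA5 were lower in the lentivirus-treated cells and no gene was called higher. Over all tested rows, 3.59% were called lower and 2.89% higher. HSP90B1, CALR, DNAJB9, ASNS and PPP1R15A did not pass the threshold. The ASNS and PPP1R15A rows had an unadjusted limma p below 0.05, as did 6890 of all 28434 tested rows. The log2 changes of the 8 rows ran from -0.64 to 0.19 with a median of -0.15, and 7 were negative. The median over all tested rows was -0.00097, and 50.1% of them were negative. In 5 of the 8 rows the groups did not overlap, a state found in 31.6% of all tested rows. ATF4 was not tested as a row, for reasons given with its values.

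**Figure D1:**
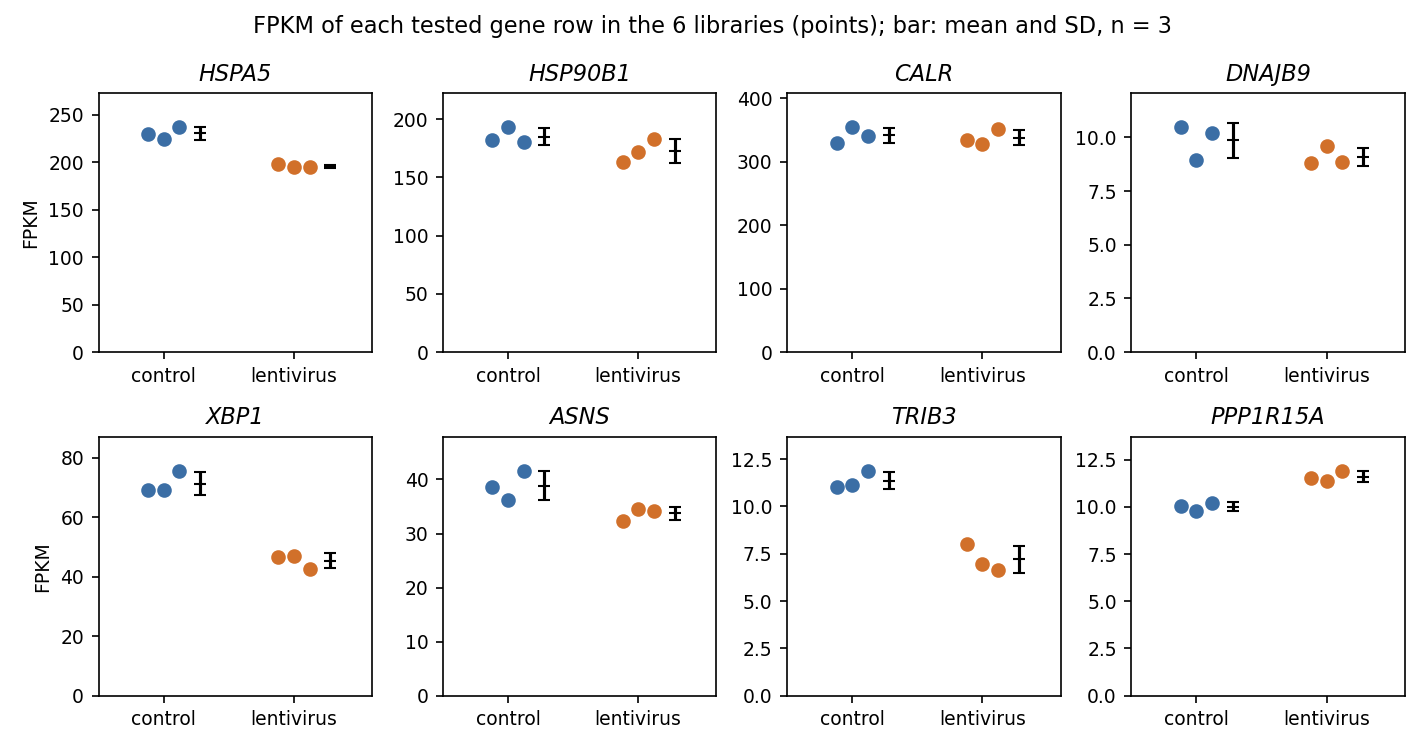
FPKM of the 8 tested gene rows in each of the 6 libraries, with 1 panel per gene, an FPKM axis from 0 in each panel, points for libraries and bars for the mean and SD (n = 3). The control and lentivirus points lie apart for HSPA5, XBP1, ASNS, TRIB3 and PPP1R15A, with PPP1R15A alone among these 5 higher after lentivirus.

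Of the 4 chaperone genes, CALR, HSPA5 and HSP90B1 held the highest row levels of the 9 and DNAJB9 stood far lower. This order is one of rows and not of messages, because all rows but that of DNAJB9 overlap others that can take part of their fragments. CALR, calreticulin, a calcium-binding lectin chaperone that retains unfinished glycoproteins, stood between 328.0 and 354.1 FPKM over the 6 libraries. HSPA5, also known as BiP, the main HSP70 chaperone of the endoplasmic reticulum and a holder of its stress sensors in their inactive state, followed at 194.7 to 236.7 FPKM. HSP90B1, the HSP90 chaperone of the same compartment, stood at 163.1 to 193.0 FPKM. These ranges did not overlap each other, nor those of XBP1 (42.5 to 75.6 FPKM) and ASNS (32.4 to 41.6 FPKM), which came next. PPP1R15A, DNAJB9 and TRIB3 followed at overall means of 10.8, 9.49 and 9.28 FPKM. The range of DNAJB9 overlapped those of PPP1R15A and TRIB3.

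HSPA5 (ENSP00000324173_1, chromosome 12, 12920981 to 12925532 in the coordinates of the deposited table, whose genome build is not given in the sources used here) fell by a modest amount. Its row read 229.9, 223.9 and 236.7 FPKM in control replicates 1 to 3 and 197.5, 194.9 and 194.7 FPKM in lentivirus replicates 1 to 3. Every lentivirus library was below every control library. The mean went from 230.2 ± 6.39 to 195.7 ± 1.58 FPKM (SD, n = 3 each), a difference of -0.23 log2 (SE 0.036, limma adjusted p = 0.0291). Among all tested rows, 18.6% had a lower log2 change than HSPA5. Without any 1 of the 6 libraries the call was lost, with log2 changes of -0.25 to -0.21 and limma adjusted p of 0.0655 to 0.109.

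For HSP90B1 (ENSP00000299767_1, chromosome 11, 99119367 to 99139719) the groups overlapped. Its row read 181.8, 193.0 and 180.3 FPKM in the control libraries and 163.1, 171.8 and 183.3 FPKM in the lentivirus libraries. Its log2 change was -0.10 with a 95% interval of -0.24 to 0.04 and a limma adjusted p of 0.359.

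CALR (ENSP00000320866_1, chromosome 6, 11618770 to 11623714) had the change closest to 0. Its row read 329.6, 354.1 and 340.0 FPKM in control and 333.7, 328.0 and 350.9 FPKM in lentivirus libraries, values that interleave. Between groups the row differed by -0.02 log2, with a 95% interval of -0.13 to 0.10 and a limma adjusted p of 0.877. On the TPM scale the sign turned and the change was 0.0060 log2.

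DNAJB9 (ENSP00000249356_1, chromosome 21, 77479121 to 77480695) encodes ERdj4, a J-domain partner of BiP in the endoplasmic reticulum and a known XBP1 target gene. It was the only one of the 9 rows that overlapped no other row of the table. It read 10.5, 8.95 and 10.2 FPKM in control and 8.82, 9.60 and 8.86 FPKM in lentivirus libraries. Control replicate 2 lay within the range of the lentivirus libraries. The difference came to -0.11 log2 with a 95% interval of -0.30 to 0.09 and a limma adjusted p of 0.473.

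XBP1 (ENSP00000216037_1, chromosome 19, 11671595 to 11677115), the transcription factor whose message IRE1 splices, had the largest change of the 8 rows on the log2(FPKM + 1) scale. By the ratio of group means and at a pseudocount of 0.1, TRIB3 was ahead by a small margin (-0.653 against -0.650 log2 at that pseudocount). Its row read 69.0, 69.0 and 75.6 FPKM in control replicates and 46.7, 46.9 and 42.5 FPKM in lentivirus replicates, with a wide gap between the groups. The mean went from 71.2 ± 3.82 to 45.4 ± 2.46 FPKM (SD, n = 3 each), which is 1.57-fold lower, a difference of -0.64 log2 (SE 0.063, limma adjusted p = 0.0142). Only 4.08% of all tested rows had a lower log2 change. The row does not separate spliced from unspliced XBP1 message. Without any 1 library its adjusted p rose to between 0.0560 and 0.0698 by limma, with log2 changes of -0.66 to -0.59.

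TRIB3 (ENSP00000217233_1, chromosome 2, 35519457 to 35529985), a pseudokinase induced by ATF4 and DDIT3, also fell, from a lower level. Its row read 11.04, 11.15 and 11.88 FPKM in control and 7.998, 6.973 and 6.647 FPKM in lentivirus libraries, again with no overlap. The mean went from 11.4 ± 0.457 to 7.21 ± 0.705 FPKM (SD, n = 3 each), 1.58-fold lower, a difference of -0.59 log2 (SE 0.081, limma adjusted p = 0.0234). Without any 1 library its limma adjusted p was 0.0609 to 0.0948.

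ASNS (ENSP00000175506_1, chromosome 21, 51247764 to 51264559), asparagine synthetase, an ATF4 target that makes asparagine from aspartate, was lower in each lentivirus library than in any control library but was not called. Its row read 38.6, 36.3 and 41.6 FPKM in control and 32.4, 34.6 and 34.2 FPKM in lentivirus libraries. The log2 change was -0.20 with a 95% interval of -0.36 to -0.04 and a limma adjusted p of 0.141.

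PPP1R15A (ENSP00000200453_1, chromosome 6, 42109148 to 42112299), also called GADD34, the stress-induced subunit that directs protein phosphatase PP1 to eIF2, was the only one of the 8 rows with a positive change. It read 10.1, 9.78 and 10.2 FPKM in control and 11.5, 11.4 and 11.9 FPKM in lentivirus libraries. The groups did not overlap, and the mean of the lentivirus libraries was 1.16 times that of the control libraries. The log2 change was 0.19 with a 95% interval of 0.07 to 0.32, and the limma adjusted p of 0.0840 missed the threshold. Of all tested rows, 78.6% had a lower log2 change.

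With 3 libraries in each group the smallest p of an exact permutation test (two-sided) is 0.10, and that was its value for HSPA5, XBP1, ASNS, TRIB3 and PPP1R15A.

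The rows share their stretch of genome with other rows, which matters for these values. Of the 9 rows, 8 overlapped rows named by JK accessions, and fragments from a shared stretch can be assigned to any of them. ATF4 (ENSP00000336790_1, chromosome 19, 22092939 to 22094093), the transcription factor at the centre of the integrated stress response, shows the extreme. Its own row was listed at 5.97e-146 FPKM or less in all 6 libraries, while 34 other rows overlapped it. Of these, 21 stayed below 0.0001 FPKM in every library and 13 reached a mean of 1 FPKM. The most abundant of them, JK109041.1, read 493.3, 465.9 and 547.2 FPKM in control and 507.2, 451.5 and 403.6 FPKM in lentivirus libraries. The near-zero values of the ATF4 row are therefore no measure of ATF4 message, which was read from the sum over overlapping rows.

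**Figure D2:**
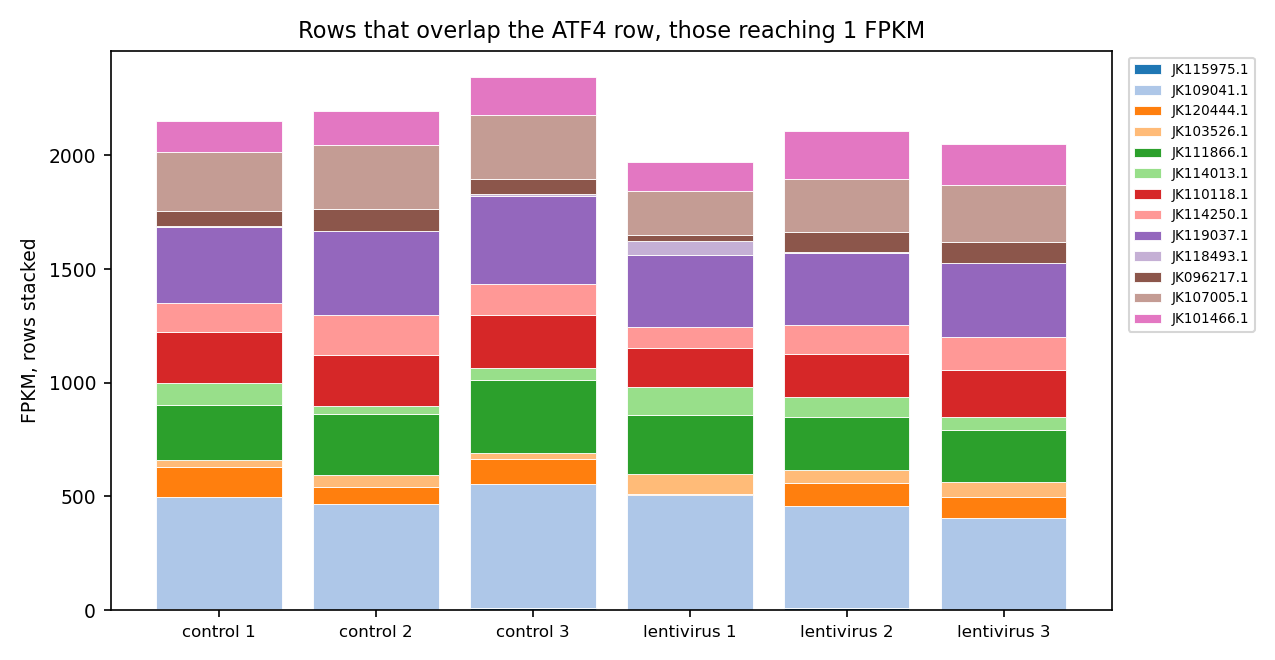
FPKM of the 13 rows that overlap the ATF4 row and reach 1 FPKM, stacked for each library on an axis from 0. The stacks run from 1972 FPKM in lentivirus replicate 1 to 2343 FPKM in control replicate 3, while the share of single rows such as JK120444.1 shifts between replicates of 1 group (100.8 FPKM in lentivirus replicate 2 and 2.11 FPKM in lentivirus replicate 1).

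Rows that overlapped, directly or through rows between them, were joined into loci and their FPKM summed. Such a sum counts short rows heavily and is not the FPKM of a single transcript, so it serves to compare libraries and not genes. None of the 9 loci held a second row named by an Ensembl protein accession. The 16072 loci with a mean of at least 1 FPKM were tested in the same way. XBP1 and TRIB3 were called lower among the 9 loci, where 10.6% of all tested loci were called lower and 8.88% higher. In 5 of the 9 loci the groups did not overlap, against 39.9% of all tested loci. The median log2 change of the 9 loci was -0.13, and that of all tested loci was -0.0056.

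The XBP1 locus summed to 270.8, 298.3 and 309.6 FPKM in control and 194.0, 200.8 and 196.2 FPKM in lentivirus libraries. It differed by -0.57 log2 between groups (SE 0.056, limma adjusted p = 0.00299). This call was kept without any 1 of the 6 libraries, with limma adjusted p of 0.00931 to 0.0166. The decrease was also seen in other rows of the locus: all 4 other tested rows were lower and 2 of them were called. JK118741.1, which overlaps the XBP1 row, read 58.5, 62.5 and 65.6 FPKM in control and 38.3, 40.2 and 41.0 FPKM in lentivirus libraries, a log2 change of -0.63 (limma adjusted p = 0.0137). JK111921.1, at a lower level, went from 14.6 ± 3.39 to 5.81 ± 1.27 FPKM, a log2 change of -1.18 (limma adjusted p = 0.0414). JK111921.1 does not itself overlap the XBP1 row and was joined to it through a row between them. Both rows come from the same 6 libraries as the XBP1 row, so they are no independent replication of it.

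The TRIB3 locus summed to 29.0, 27.2 and 25.6 FPKM in control and 21.7, 17.7 and 18.2 FPKM in lentivirus libraries, with no overlap. It differed by -0.49 log2 between groups (SE 0.089, limma adjusted p = 0.0150). The call was lost without lentivirus replicate 2 or 3 (limma adjusted p = 0.0531 and 0.0526) and kept without any of the other 4 libraries. Of its 2 other rows, JK100297.1 went from 13.8 ± 1.45 to 9.41 ± 1.42 FPKM (limma adjusted p = 0.0779). The other, JK124950.1, stood at 2.12 ± 0.861 FPKM in control and 2.56 ± 0.189 FPKM in lentivirus libraries.

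For HSPA5, the summed locus had a log2 change close to that of the row and a wider error. It read 1882, 1658 and 1521 FPKM in control and 1478, 1406 and 1426 FPKM in lentivirus libraries, a difference of -0.23 log2 (SE 0.079, limma adjusted p = 0.0948). The SD among controls was 182.5 FPKM for the locus and 181.4 FPKM for 1 of its rows, JK110021.1, which does not touch the HSPA5 row itself and read 1198, 947.6 and 844.8 FPKM in the control libraries. With the rows that directly overlap HSPA5 alone, the log2 change was -0.18 with SE 0.041, and the limma adjusted p was 0.0277. That fit cut only the loci of the named genes in this way, and all other loci kept their full sums. In it, 10.6% of all loci were called lower, a share that is no matched background for a cut locus. Without control replicate 1 the log2 change of the whole locus shrank to -0.14, and no fit without 1 library called it (limma adjusted p = 0.0519 to 0.216).

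The ATF4 locus summed to 2152, 2194 and 2343 FPKM in control and 1972, 2106 and 2051 FPKM in lentivirus libraries. All lentivirus libraries were below all control libraries, by a narrow margin. The log2 change was -0.13 with a 95% interval of -0.24 to -0.01, and the limma adjusted p of 0.117 missed the threshold. None of its 13 other tested rows was called by limma, and 9 were lower.

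The loci of the other chaperones and of ASNS were not called. The HSP90B1 locus changed by -0.13 log2 (95% interval -0.35 to 0.09) and the CALR locus by 0.06 log2 (95% interval -0.11 to 0.23). In both loci single rows moved widely between replicates of the same group. In the HSP90B1 locus, JK092091.1 read 196.2 and 262.3 FPKM in control replicates 1 and 3 but was listed at 2.11e-180 FPKM in control replicate 2. In the CALR locus, JK117197.1 read 96.2 and 62.8 FPKM in control replicates 1 and 3 and was listed at 2.21e-15 FPKM in control replicate 2. The ASNS locus changed by -0.13 log2 (95% interval -0.28 to 0.02), and its groups overlapped: lentivirus replicates 1 and 2 read 40.0 and 39.7 FPKM, and control replicate 2 read 39.7 FPKM.

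The PPP1R15A locus lay at the threshold. It summed to 14.6, 14.6 and 15.6 FPKM in control and 16.8, 17.8 and 19.8 FPKM in lentivirus libraries, with no overlap. It differed by 0.26 log2 between groups (SE 0.073, limma adjusted p = 0.0501). It passed under median ratio scaling (limma adjusted p = 0.0478) and quantile normalization (0.0480), but not on the TPM scale (0.0565) or without any 1 library (0.0531 to 0.129). The sum is not the PPP1R15A row alone. Of its 2 other rows, JK102127.1 went from 4.24 ± 1.34 to 5.99 ± 0.842 FPKM (limma adjusted p = 0.292), and its groups overlapped. The other, JK107405.1, read 0.000185, 2.00 and 0.000735 FPKM in control replicates 1 to 3.

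**Figure D3:**
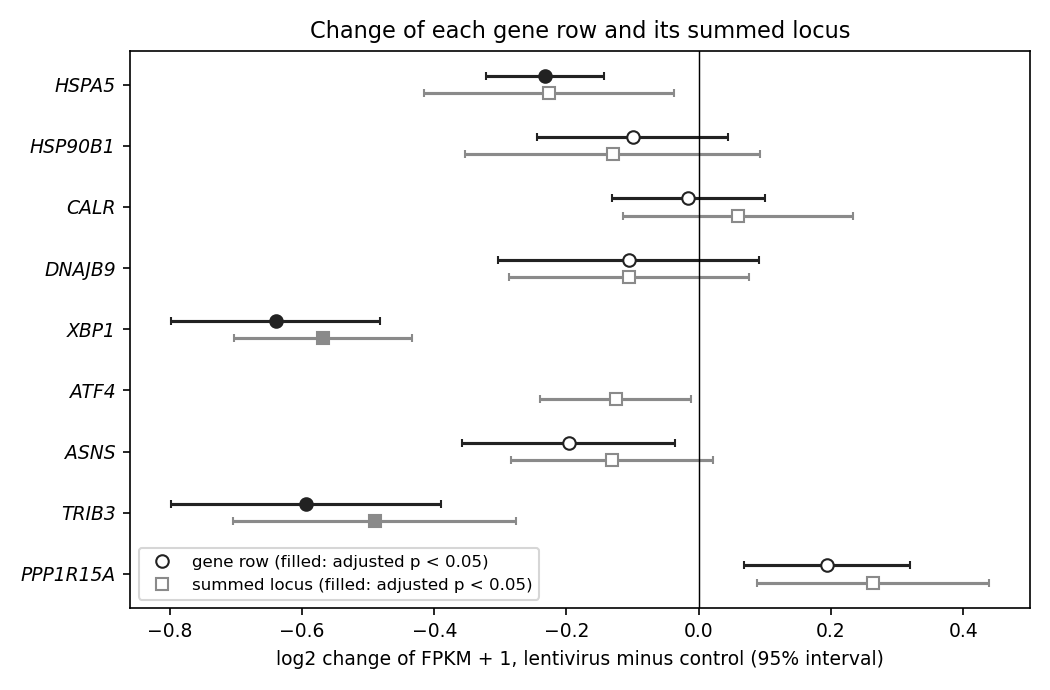
Log2 change of FPKM + 1, lentivirus minus control, for each gene row (circles) and its summed locus (squares), with 95% intervals from limma; filled symbols passed an adjusted p under 0.05. The XBP1 and TRIB3 symbols are filled for row and locus and lie between -0.64 and -0.49, HSPA5 is filled for the row only, and PPP1R15A lies to the right of 0.

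**Figure D4:**
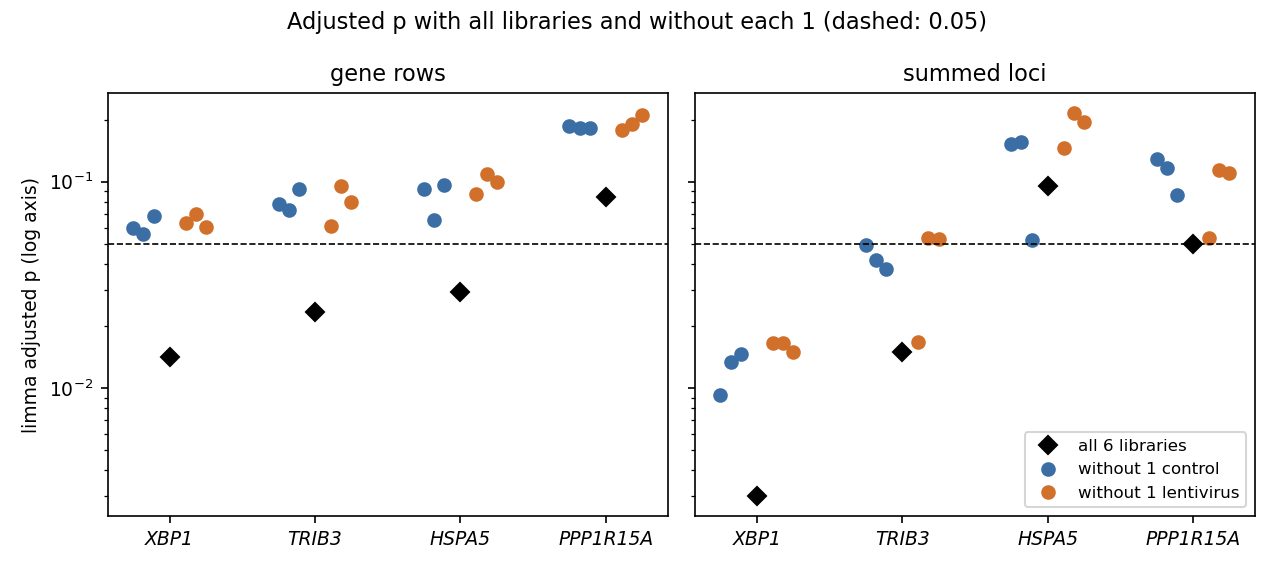
Limma adjusted p (log axis) of XBP1, TRIB3, HSPA5 and PPP1R15A with all 6 libraries (diamonds) and without each library in turn (circles), for gene rows on the left and summed loci on the right; the dashed line marks 0.05. All circles of the rows lie above the line, and all 6 circles of the XBP1 locus lie below it.

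Each locus was also set against the 20 nearest tested loci of its chromosome. PPP1R15A lies in a stretch that moved the other way. Of its 20 neighbours 16 were lower and 10 were called lower, none was called higher by limma, and their median log2 change was -0.24. These calls are from the locus fit above, where 10.6% of all tested loci were called lower and 8.88% higher. The nearest locus on one side had a positive change of 1.18 log2 that was not called. In a further fit, the median deviation of the neighbours from their own means was subtracted in each library. What was subtracted differed by -0.27 log2 between groups here, which is not the same measure as the median change above. The PPP1R15A locus was then called higher by limma, with a log2 change of 0.53, SE 0.093 and an adjusted p of 0.0197. In that fit 5.25% of all tested loci were called higher and 6.62% lower.

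The XBP1 locus was called relative to its neighbours as well. Its neighbours had a median log2 change of -0.10, and their median deviation per library differed by -0.08 log2 between groups. With that deviation subtracted, XBP1 changed by -0.49 log2 (SE 0.057, limma adjusted p = 0.00623). For TRIB3 the call was lost in this fit: the log2 change was -0.35 (SE 0.11, limma adjusted p = 0.0897), beside a median of -0.12 among its neighbours. ASNS had neighbours with a median of -0.12, and its own change relative to them was -0.02 log2 (limma adjusted p = 0.835). HSPA5 had neighbours with a median of 0.0071, and its change relative to them was -0.24 log2 (limma adjusted p = 0.113). ATF4 changed by -0.04 log2 relative to its neighbours (limma adjusted p = 0.749). For CALR, whose neighbours had a median of -0.10, the change went from 0.06 to 0.18 log2 (limma adjusted p = 0.0623). DNAJB9 had neighbours with a median of 0.11, and its change went from -0.11 to -0.20 log2 (limma adjusted p = 0.190). HSP90B1 had neighbours with a median of -0.09, and its change went from -0.13 to -0.02 log2 (limma adjusted p = 0.912). The part of these stretches in each gene's change was not tested beyond this subtraction.

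**Figure D5:**
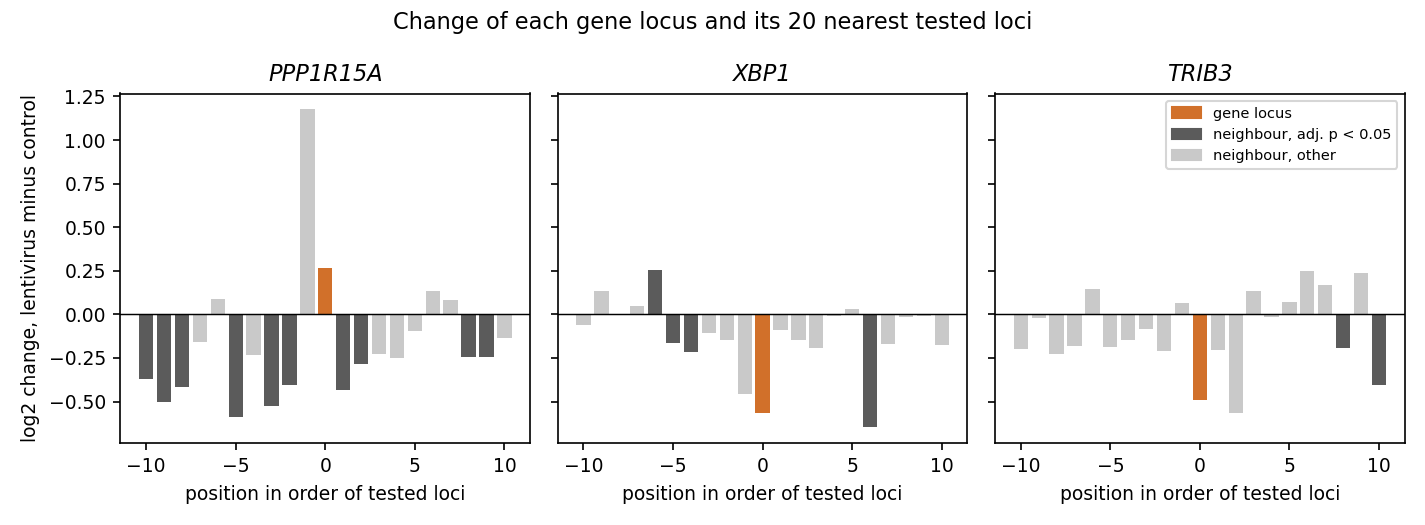
Log2 change, lentivirus minus control, of the PPP1R15A, XBP1 and TRIB3 loci (orange) and of the 20 nearest tested loci in their order along the chromosome; dark bars are neighbours with a limma adjusted p under 0.05. The bar of PPP1R15A points up among neighbours of which 16 point down, and that of XBP1 is longer than those of all but 1 of its neighbours.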

How the data were processed

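The authors deposited 1 table of FPKM values with a column per library and no counts. The submitters' processing notes list Cuffdiff, Cufflinks 2.1.1, TopHat2 2.0.10, CASAVA and Bowtie2 2.1.0.0. What each did, the annotation, the build and any normalization across libraries: not given in the sources used here. Reads could not be recovered from the low values, since only 2 of the 14128 non-overlapping rows lay between 0 and 0.3 FPKM in every library.

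Genes were found by accession. The genes and lists were chosen with earlier results of these data known. All 10 genes are named whether called or not. A further 56 pathway symbols and the cell markers could not be matched, as 0 row IDs occur in the reference table, and were not analysed here. No sequence was available to print.

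Rows, and loci of rows sharing at least 1 base, were tested with limma 3.58.1 in R 4.3.3 (lmFit, eBayes with an intensity trend, group as the only term, pseudocount 1, two-sided), after a test on simulated data. Alternatives covered the pseudocount, filter, scaling, trend, replicate block, left-out libraries, locus definition (changed for the gene loci alone) and neighbours.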

Additional observations from a re-analysis of the deposited data

How the results depend on the processing

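The 3 called gene rows (XBP1, TRIB3, HSPA5) stayed 3 under both pseudocounts, both filters and all 3 scalings, and became 2 with no intensity trend, where HSPA5 had a limma adjusted p of 0.0607. Over all rows, limma called 2058 of 20406 at the filter of 5 FPKM. The pseudocount, scaling and trend fits called 1368 to 1913 of 28434. With a replicate block (the replicate number as a term), limma found 0 of the 8 gene rows (5 had an unadjusted p under 0.05) and 0 of all 28434 rows (6084 had). Same-numbered libraries had correlations of deviations of 0.13, -0.03 and 0.0028 over rows. Those of libraries with different numbers ran from -0.14 to 0.13, so the numbers are not known to pair them. With 1 library left out, limma called 0 gene rows in each of the 6 fits and 48 to 118 of all rows in place of 1842. In these fits 4 or 5 gene rows had an unadjusted limma p under 0.05, as did 5567 to 6408 of all 28434 rows. With no filter 1197 of all 51520 rows were called. The 2 called gene loci (XBP1, TRIB3) stayed 2 with the block, and were 1 to 2 without 1 library. Over all loci, 3134 calls became 1774 with the block, 1444 to 2229 without 1 library, and 1908 with the neighbours subtracted, a count added after the data were seen. The gene loci called were 3 at a pseudocount of 0.1, at a filter of 5 FPKM, under median ratio and quantile scaling (PPP1R15A added) and with directly overlapping rows (HSPA5 added). Over all loci, limma called 2928 of 11849 at that filter and 3105 to 3119 of 16072 at that pseudocount and under those scalings. The fit with directly overlapping rows cut only the gene loci and left all other loci as full sums. In it, 10.6% of all loci were called lower and 8.88% higher, which is no rate for loci cut that way. The XBP1 locus kept its call in all 6 fits without a library and all 11 other alternatives. The CALR row, not called in any fit, changed sign on the TPM scale (0.0060 log2) and without control replicate 2 or lentivirus replicate 2 (0.011 and 0.0046), and ran from -0.044 to 0.011 log2 over the fits without 1 library. The cause of these losses was not tested. By construction, the left-out and block fits have fewer samples or degrees of freedom. Depth is unknown.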
